A study of Mus musculus with 6 samples.

Results

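Small RNA reads deposited under the name mir-1285 were examined in 6 libraries, and all of them match 7SL RNA, which forms the core of the signal recognition particle. The members were chosen by name from a table of 823 rows: every row named mir-1285, with any species prefix, arm or suffix, which gave 5 rows and 5 sequences among 756 features (a feature is 1 name with 1 sequence). They were picked on the basis of earlier values of these data, because their share of reads was far higher in the third library of each group than in the other libraries. That contrast is therefore described here without a test. The libraries were labelled as Mes23.5, a dopaminergic hybrid line of mouse neuroblastoma and rat midbrain cells, and the labels record 24 h of LPS, a bacterial endotoxin, in both groups. In the 3 SIX2_EV libraries the cells had received extracellular vesicles from microglia that overexpress the transcription factor SIX2, and in the 3 control_EV libraries vesicles from control microglia. The labels' growth protocol names BV2, a mouse microglial line, and not Mes23.5, so the cell type is given only as labelled. A few marker miRNAs were picked after their values were seen, so the cell type is not judged from them. Other miRNAs known from neurons, rno-miR-7a-5p and rno-miR-129-5p among them, were also listed, and their reads are not given here. Of the picked miRNAs known from neurons, miR-124-3p had no row, and miR-128-3p had between 8 and 311 reads per library. miR-9-5p had 6.99 reads in control_EV replicate 1 and was listed at 0 elsewhere. Of the picked miRNAs known from blood and myeloid cells, miR-142-5p had between 198 and 4235 reads. miR-223-3p was listed at 0 in SIX2_EV replicates 1 and 2, had 33 and 38 reads in control_EV replicates 1 and 2, and had 61 and 461 reads in replicate 3 of SIX2_EV and control_EV. In each group miR-128-3p, miR-142-5p and miR-223-3p had most reads in replicate 3, and their part in the results below was not tested. Deposited reads per library ranged from 179621 to 421279, and the labels do not say whether each library is its own culture, so the p-values below may reflect technical spread alone.

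7SL RNA is a short non-coding transcript of RNA polymerase III. With its proteins it forms the signal recognition particle, which binds ribosomes that make secreted and membrane proteins and brings them to the endoplasmic reticulum. Its 5′ and 3′ ends pair with each other in the Alu domain, and its middle forms the S domain. The 3′ end of the transcript is known to be trimmed and extended by a single adenylate. The repeats called Alu in primates and B1 in rodents descend from 7SL RNA. A mature miRNA, by contrast, is cut by Dicer from the stem of a hairpin, so its partners on the arms stand apart by the length of the loop.

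The 5 sequences are joined by their place in 7SL RNA, whose positions are counted from its 5′ end to its last base at position 300 in the GENCODE M21 transcript of Rn7s2. The prefix ssc stands for pig and cgr for Chinese hamster, the species whose miRNA entry lent the name. Of the 5 sequences, 3 share a run of 14 bases (positions 260 to 273).

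All 5 sequences lie on the sense strand within the last 84 bases of 7SL RNA, and 4 of them match it without a mismatch. ssc-mir-1285-p5 covers positions 249 to 273, and ssc-mir-1285-p3 covers positions 275 to 300, the last base of the annotated transcript. A gap of 1 base separates them. cgr-mir-1285-p3 (positions 259 to 277) and cgr-miR-1285 (260 to 279) overlap both of these, while cgr-mir-1285-p5 (217 to 234) lies upstream and overlaps no other member. Together the members cover 70 of the 84 bases. The mouse annotation holds 2 identical genes of this length in GRCm38, Rn7s1 and Rn7s2, both on chromosome 12 and on opposite strands. Both are annotated as misc_RNA and have 0 mismatches to each other, so reads of the 2 cannot be told apart. cgr-mir-1285-p5 occurs in the transcripts of these 2 genes and in no other GENCODE M21 gene. cgr-mir-1285-p3 and cgr-miR-1285 occur in 5 genes each and ssc-mir-1285-p5 in 6, all annotated as misc_RNA or miRNA.

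**Figure D1:**
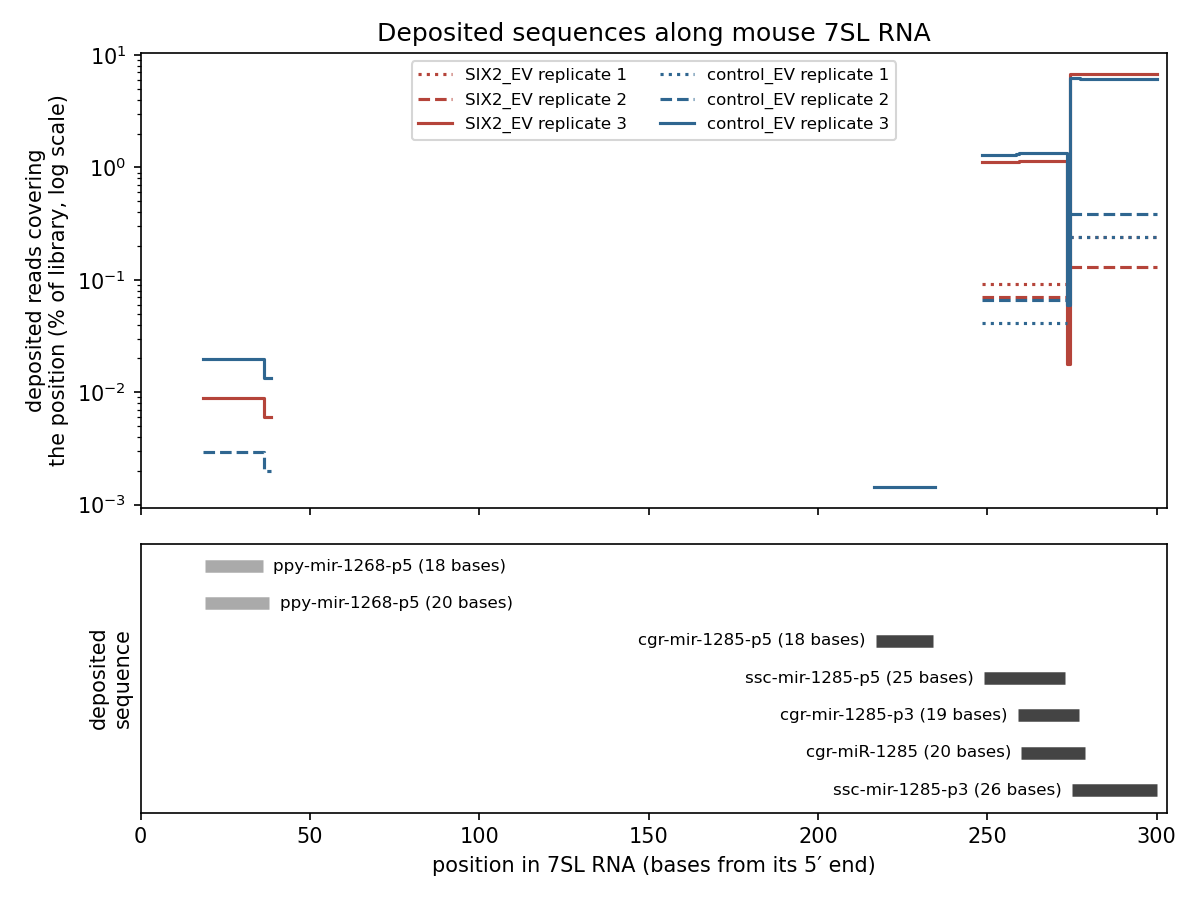
Upper plot: share of each library's deposited reads (percent, log scale) that cover each position of mouse 7SL RNA, counted from its 5′ end, 1 line per library. Lower plot: positions of the 5 mir-1285 sequences (dark) and of the 2 other features that match 7SL RNA (grey). Nearly all deposited reads that match 7SL RNA lie between positions 249 and 300, where the third library of each group runs above the others. Between positions 275 and 300 the lines of SIX2_EV replicate 1 and control_EV replicate 1 lie on each other (0.242%).

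ssc-mir-1285-p3 ends in a base that the 7SL gene does not encode. This is the only mismatch to 7SL RNA among the 5 members. No GENCODE M21 transcript holds the 26 bases as deposited, whereas the first 25 occur in 4 genes (Rn7s1, Rn7s2, Gm47295 and Gm47299). Gm47295 and Gm47299 are annotated as miRNA, and a match by letters cannot tell them from Rn7s1 and Rn7s2. No deposited feature has the same 25 bases with the base of the gene at the end. A substitution is named in 135 of the 756 features, at the last base in 20 of these (14.8%). The origin of this terminal base was not tested. At 26 bases the sequence also has the longest length in the table, whose features run from 18 to 26 bases.

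The hairpins to which the authors assigned these sequences consist wholly or mostly of sequence that matches 7SL RNA. The 80-base hairpin of both pig-named sequences was placed on chromosome 12 in an unnamed build that differs from GRCm38. Its first 77 bases are positions 224 to 300 of 7SL RNA, followed by 3 bases beyond the transcript. It differs from the pig hairpin in the file by 1 base. The hamster-named p5 and p3 sequences share a hairpin of 100 bases on the same chromosome, and all 100 bases are 7SL RNA (positions 185 to 284). cgr-miR-1285 was placed on chromosome 5, in a hairpin of 66 bases of which 58 are a run of 7SL RNA. The hamster mature miRNA as the file gives it is 24 bases long and is identical to positions 261 to 284 of mouse 7SL RNA, so the name and the 7SL match cannot be separated by sequence.

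The spacing and length of the pig-named pair also differed from those of most listed miRNAs, while the spacing of the hamster-named p5 and p3 lay within their range. In the 120 other hairpins that had a mature name on both arms, the arms were 9 to 42 bases apart, with a median of 16, against 1 base for the pig-named pair and 24 for the hamster-named p5 and p3. Over all 137 other hairpins with a sequence on each arm, 4 had arms that overlapped (mir-6240, mir-3473h, bta-mir-2887-2 and efu-mir-9226), and none of the others had a gap as short. ssc-mir-1285-p5 and p3 are 25 and 26 bases long, whereas 9 of 364 mature mouse or rat names with a mouse position (2.47%) had such a length and their median was 22. The 3 hamster-named sequences are 18 to 20 bases long. GC content ran from 55.6% to 68.4% over the 5 sequences, and the median of the mature names was 45.5%. No 2 members share a seed (bases 2 to 8, by which a miRNA pairs with its targets). Of the 5 seeds, that of cgr-mir-1285-p3 occurs in the RefSeq table of mouse miRNAs (GRCm38.p6), in miR-191-3p, and the other 4 match none of its 1679 mature names.

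Together the 5 sequences took 0.334%, 0.202% and 7.94% of deposited reads in SIX2_EV replicates 1, 2 and 3, and 0.283%, 0.447% and 7.48% in control_EV replicates 1, 2 and 3. The third library of each group was high and the other 4 were low, with no overlap, and the groups overlapped. These shares came from 600, 469 and 14624 reads in SIX2_EV and from 729, 1132 and 31529 reads in control_EV. Wilson intervals at 95%, which cover counting error only, were narrow beside these gaps, at 7.82 to 8.06% and 7.41 to 7.56% in the third libraries and at most 0.474% in any other. Within groups, the third library stood 23.8 and 39.4 times above SIX2_EV replicates 1 and 2, and 26.4 and 16.7 times above control_EV replicates 1 and 2. In bulk libraries a change in the number of cells of a type and a change in RNA per cell cannot be told apart.

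**Figure D2:**
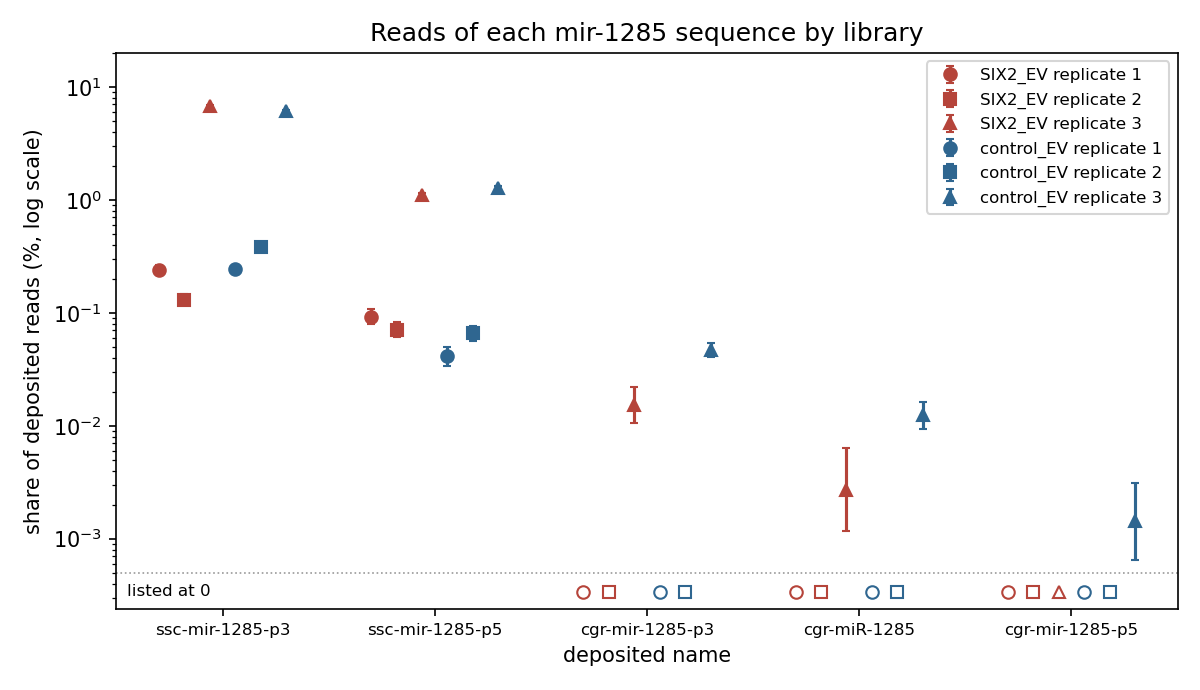
Share of deposited reads (percent, log scale) of each mir-1285 sequence in the 6 libraries, by group (colour) and replicate (shape). Bars are 95% Wilson intervals for counting error, and open marks below the dotted line are libraries in which the sequence was listed at 0. The pig-named p3 and p5 sequences were listed in all 6 libraries and were highest in replicate 3 of both groups.

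Shares that were higher in replicate 3 of both groups were common in the table. In this contrast, on which the members were chosen, 152 of 756 features (20.1%) had a higher share in replicate 3 of both groups than in any other library. Of the mir-1285 names 4 of 5 did, and nothing is read from that count. Of the 364 mature mouse or rat names 65 did. Control_EV replicate 3 was also the deepest library, with 421279 reads and 680 features above 0, whereas SIX2_EV replicate 3 had 184208 reads and 419 features, close in depth to SIX2_EV replicate 1 (179621 reads and 276 features).

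**Figure D3:**
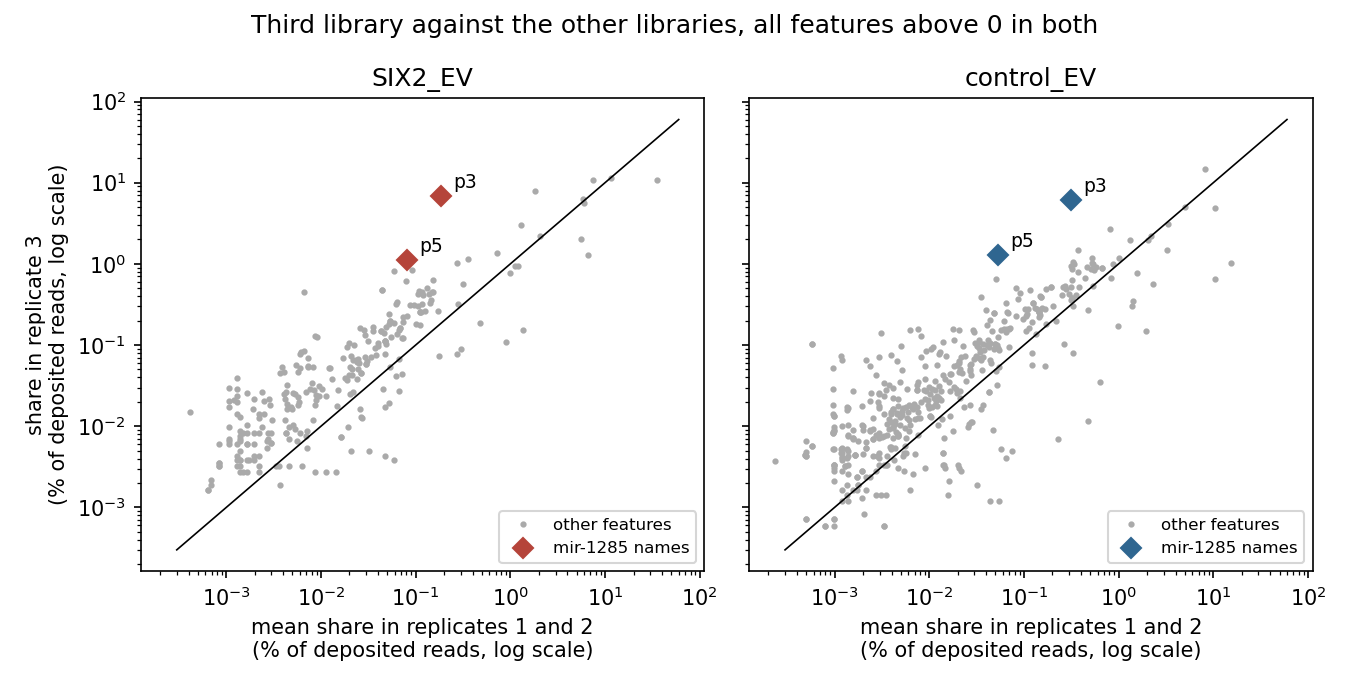
Share of deposited reads in replicate 3 against the mean share in replicates 1 and 2 of the same group (percent, both axes log) for each feature above 0 in both (273 in SIX2_EV, 464 in control_EV). The line marks equal shares, and ssc-mir-1285-p3 and p5 (diamonds) lie far above it in both groups.

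ssc-mir-1285-p3, whose match runs to the 3′ end of 7SL RNA, was the most abundant member in every library. Its reads numbered 434, 305 and 12540 over the SIX2_EV libraries against 623, 966 and 25874 over the control_EV libraries, or 0.242%, 0.131% and 6.81% against 0.242%, 0.382% and 6.14% of reads. ssc-mir-1285-p5, the fragment just upstream, was read 166, 164 and 2051 times over the SIX2_EV libraries against 106, 166 and 5399 times over the control_EV libraries, or 0.0924%, 0.0705% and 1.11% against 0.0411%, 0.0656% and 1.28% of reads. For both fragments the third libraries were high and all others low. Among the 190 features listed in all 6 libraries, p3 and p5 ranked first and second by the lower share in replicate 3 divided by the highest share in replicates 1 and 2 of either group (16.1 and 12.05). efu-mir-9277-p3 came next at 6.74. The members were chosen on this contrast, so nothing is read from these ranks. Features listed at 0 in any library were not ranked.

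The 3 hamster-named sequences were rare and were listed only in the third libraries. cgr-mir-1285-p3 had 28 reads in SIX2_EV replicate 3 and 198 in control_EV replicate 3, or 0.0152% and 0.0470% of reads. cgr-miR-1285 had 5 and 52 reads in these libraries. cgr-mir-1285-p5 had 6 reads in control_EV replicate 3 and was listed at 0 elsewhere. The table lists few values under 5 reads (31 of 2410 values above 0), so a value of 0 means listed at 0. Against an assumed floor of 5 reads per library, which some listed values undercut, cgr-mir-1285-p3 was at least 5.46-fold higher in the third library than in the other libraries of its group. This bound uses the contrast on which the members were chosen, so nothing is read from it. For the other 2 no such bound was drawn, since they stood at or near this floor in replicate 3 of at least 1 group. In the third libraries the pig-named pair made up 99.8% (SIX2_EV) and 99.2% (control_EV) of the reads under mir-1285 names, and in the other 4 libraries all of them.

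The balance of the 2 abundant fragments was not constant. p3 made up 72.3%, 65.0% and 85.9% of the p3 and p5 reads in SIX2_EV and 85.5%, 85.3% and 82.7% in control_EV. SIX2_EV replicates 1 and 2 lay below the other 4 libraries, and their Wilson intervals (68.6 to 75.8% and 60.6 to 69.2%) did not reach the lowest of those (82.3 to 83.2% in control_EV replicate 3). The group means were 74.4% ± 10.6 and 84.5% ± 1.54 (SD, n = 3), and a two-sided exact permutation test gave p = 0.4. The groups overlapped through SIX2_EV replicate 3, so the difference was not larger than the spread between libraries. With 3 against 3 libraries the smallest p is 0.1.

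The comparison between the groups, which the choice of members did not use, gave no difference in their share beyond the spread between libraries. The mean shares were 2.82% ± 4.43 in SIX2_EV and 2.74% ± 4.11 in control_EV (SD, n = 3), a difference of 0.0867 percentage points (two-sided exact permutation test, p = 0.9). Leaving out SIX2_EV replicate 3 moved the difference to -2.47 points and leaving out control_EV replicate 3 moved it to 2.46, so its sign rests on the third libraries. It was also negative without control_EV replicate 1 (-1.14) or control_EV replicate 2 (-1.06), and it was 1.33 and 1.40 without SIX2_EV replicates 1 and 2. In replicates 1 and 2 alone the means were 0.268% and 0.365%, and the groups overlapped.

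Against all features, p3 and p5 were the only members with enough reads to be tested, and neither passed in edgeR. edgeR's quasi-likelihood test on the counts called 0 of 319 tested features (0%) at an adjusted p of 0.05, though 39 had an unadjusted p under 0.05. DESeq2 called 20 of them (6.27%), and ssc-mir-1285-p5 was not among these. ssc-mir-1285-p3 could not be called by DESeq2, which left it without a p. In CPM, the read count per library size as scaled by TMM, ssc-mir-1285-p3 stood at 4096, 4237 and 56576 over the SIX2_EV libraries and at 2260, 2399 and 22962 over the control_EV libraries. Its log2 fold change, SIX2_EV over control_EV, was 1.23 (SE 1.41), with an adjusted p of 0.781 by edgeR, and DESeq2 gave no p for it. ssc-mir-1285-p5 stood at 1567, 2279 and 9253 CPM over the SIX2_EV libraries and at 385, 412 and 4791 CPM over the control_EV libraries, and for both fragments the groups overlapped. Its log2 fold change was 1.23 (SE 1.19) with an adjusted p of 0.747 by edgeR and 0.680 by DESeq2.

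The size of these values, and for p5 the sign, rests on the scaling. TMM gave SIX2_EV replicates 1 and 2 factors of 0.590 and 0.309 and control_EV replicate 3 a factor of 2.67. With total counts the log2 fold changes were 0.09 for p3 and -0.12 for p5. The median over all tested features moved from -0.30 with TMM to -1.52 with total counts, so relative to that median both fragments had positive values in either case. Without SIX2_EV replicate 3 the value of p3 was -1.02 and that of p5 0.16, and without control_EV replicate 3 they were 3.31 and 3.57. In replicates 1 and 2 alone the TMM values were 1.02 for p3 and 2.44 for p5, each with an adjusted p of 0.0871 by edgeR, and in CPM the groups did not overlap there. On the scale of shares p5 was higher in SIX2_EV replicates 1 and 2 than in control_EV replicates 1 and 2, whereas p3 was lower there, with SIX2_EV replicate 1 (0.2416%) just below control_EV replicate 1 (0.2418%).

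The share of mature miRNAs moved with these scales and with the third libraries. Mature mouse or rat names took 13.4%, 6.52% and 31.6% of reads in SIX2_EV and 30.6%, 55.1% and 68.5% in control_EV. The third library was the highest of each group, by 3.18 and 1.60 times the mean of the other 2. Per 100 mature reads there were 2.50, 3.09 and 25.1 reads under mir-1285 names in SIX2_EV and 0.924, 0.813 and 10.9 in control_EV. On this scale the third libraries were still the highest, at 9.83 times the mean of the others against 24.4 times for shares of all reads. The groups still overlapped, with an exact permutation p of 0.5, and SIX2_EV replicates 1 and 2 lay above control_EV replicates 1 and 2. The part of the mature share in these differences was not tested.

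Foreign-named abundant fragments moved the other way. This list of 18 features, led by the cattle-named bta-mir-2887-2-p5, took 55.2%, 61.8% and 26.3% of reads in SIX2_EV and 37.5%, 25.01% and 2.64% in control_EV, lowest in the third library of each group. Suspected RNA fragments (mir-6236, mir-6238 and mir-6240) took 25.5%, 23.6% and 24.2% in SIX2_EV and 22.3%, 11.5% and 11.2% in control_EV, so they did not single out the third libraries. Their part in the mir-1285 shares was not tested. miR-21-5p, an abundant miRNA of many cell types, took 7.88% and 14.5% of reads in the third libraries and between 1.21% and 10.5% in the others.

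**Figure D4:**
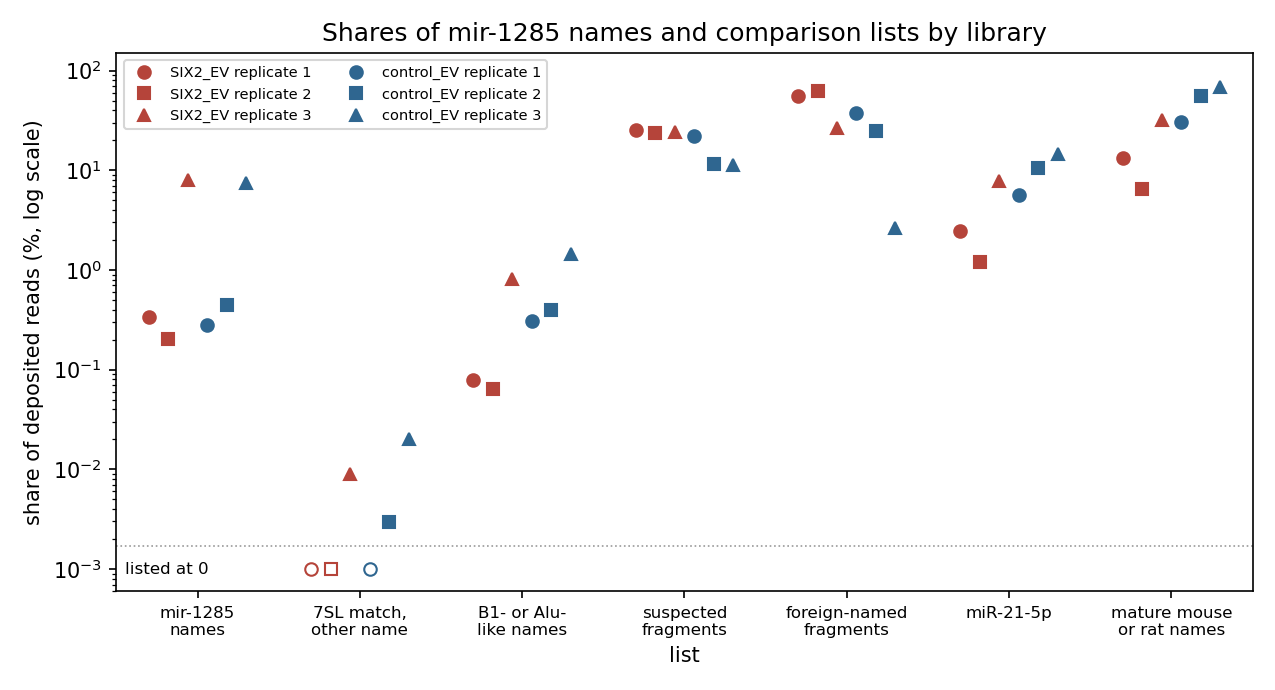
Share of deposited reads (percent, log scale) of the mir-1285 names and of comparison lists in the 6 libraries, by group (colour) and replicate (shape). Open marks are libraries listed at 0. The mir-1285 names were at 7.94% and 7.48% in the third libraries and at most 0.447% elsewhere, while within each group the foreign-named fragments were lowest in the third library.

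Rodent names that resemble B1 or Alu repeats (miR-3470, miR-3473, miR-1195 and miR-5106, 18 features) are relatives of 7SL RNA by descent in part. They took 0.0795%, 0.0645% and 0.803% of reads in SIX2_EV and 0.308%, 0.401% and 1.43% in control_EV. They were highest in the third libraries as well, but by a smaller factor, with the lower share in replicate 3 at 2.00 times the highest share in replicates 1 and 2, against 16.7 times for the mir-1285 names. Within groups, the third library stood at 11.2 (SIX2_EV) and 4.04 (control_EV) times the mean of the other libraries for this list, against 29.6 and 20.5 times for the mir-1285 names. The most abundant of them was mir-3473f-p3, with 0.475% and 0.386% of reads in the third libraries. The mir-1285 names were chosen on this contrast, so nothing is read from their larger factors. The lists were compared by their values alone.

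Outside the mir-1285 names, 2 further features match 7SL RNA over their whole length, both named ppy-mir-1268-p5 (ppy stands for orangutan). They are 18 and 20 bases long and lie at the other end of the molecule, starting at position 19, in the 5′ part that joins the 3′ end in the Alu domain. Their summed share was listed at 0 in SIX2_EV replicates 1 and 2 and control_EV replicate 1, and was 0.00296% in control_EV replicate 2, 0.00896% in SIX2_EV replicate 3 and 0.0199% in control_EV replicate 3. The third libraries were again the highest, from few reads (16.5 and 84). The mir-1285 names held at least 99.3% of the deposited reads that match 7SL RNA in every library. Reads of 7SL RNA that were not listed under a feature cannot be seen here, so their share and place are unknown. No deposited feature matched Rn7sk, Rny1, Rny3, Vaultrc5, Rmrp or Rpph1, other transcripts of RNA polymerase III, over its whole length with at most 1 mismatch. Reads of these transcripts that were not listed under a feature cannot be seen either, so nothing is read from their absence. Per the labels' protocols the authors removed rRNA, tRNA, snRNA, snoRNA and repeats, and 7SL RNA is not among the families named. Whether the repeats included 7SL RNA was not tested, nor was the part of this step in the listed reads.

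The features whose pattern over the 6 libraries was most like that of the summed mir-1285 names were ranked by Pearson's r of log2(CPM of all deposited reads + 10), among 326 features with a mean of at least 50 CPM. The first 5 were PC-3p-52342 (r = 0.984), mmu-mir-5100-p3 (0.980), PC-3p-65453 (0.973), PC-5p-26286 (0.969) and rno-miR-351-3p (0.951), where PC marks a predicted sequence with no miRBase name. The first 4 were listed at 0 in the 4 other libraries. They had 35, 25, 18 and 39 reads in SIX2_EV replicate 3 and 122, 105, 93 and 290 in control_EV replicate 3. rno-miR-351-3p was read 6, 0 and 47 times over the SIX2_EV libraries and 6, 9 and 107 times over the control_EV libraries. Each r rests largely on replicate 3 of both groups and is a measure of likeness only. None of these 5 sequences shares a run of more than 7 bases with 7SL RNA.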

How the data were processed

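Small RNA was sequenced from 3 SIX2_EV and 3 control_EV libraries. Per the labels' protocols, the authors extracted RNA with Trizol, used the TruSeq small RNA kit, and cleaned reads with ACGT101-miR. Genome build, miRBase release and mapping settings were not given in the sources used here. Values in the deposited table are estimated counts per sequence and locus, which need not be whole (89.8% of values above 0 were, within 0.05). A second set is the authors' normalized signal, in which each library's counts were multiplied by a constant between 0.227 and 3.40.

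Rows of the same name and sequence were summed (756 features) and rounded for count tests. Shares are percentages of all deposited reads of a library. Sequences were matched to GENCODE M21 transcripts by letters alone, over their whole length, with at most 1 mismatch to 7SL RNA (Rn7s2). All features were fitted with edgeR 4.0.16 (quasi-likelihood, TMM, filterByExpr, Benjamini-Hochberg, no block) in R 4.3.3, with DESeq2 1.42.0 as an alternative. The edgeR script was also run on simulated data. Their spread between libraries was set equal for all features and not taken from these data, so that run does not show how the test behaves here. Shares were compared by exact permutation with scipy 1.17.1. Mature names are mouse or rat names with a mouse position.

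The members and lists were chosen with earlier results of these data known. The text names every member, other features that match 7SL RNA, the 5 features most like the members in pattern, and the most abundant feature of a list; efu-mir-9277-p3, the arm-gap examples and the cell type markers were chosen after their values were seen. The letters of the sequences are not reported here.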

Additional observations from a re-analysis of the deposited data

How the results depend on the processing

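The difference in summed share between SIX2_EV and control_EV (0.0867 percentage points) changed sign without ssc-mir-1285-p3 (-0.0516) and in replicates 1 and 2 alone (-0.0973), and leaving out 1 library gave -2.47 to 2.46. No permutation p could pass in this design. The ratio of the third libraries to the others (24.4) was 9.83 per 100 mature reads, 12.4 without the 10 most abundant features, and 10.8 with the authors' normalized signal, an alternative chosen after seeing the data; leaving out 1 library gave 21.7 to 28.3. edgeR called 0 features in each of its settings, and DESeq2 called 20. The log2 fold change of ssc-mir-1285-p3 (settings for single members were added after seeing the data) ran from -1.02 (without SIX2_EV replicate 3) to 3.31 when 1 library was left out, and that of p5 from 0.16 to 3.57; p5 was -0.12 with total counts. The deviations of same-numbered libraries from their group means had r = 0.209, 0.0669 and 0.673, and those of differently numbered libraries -0.668 to 0.623. These values do not settle whether the numbers pair the libraries. With the replicate block edgeR called 0 features, 45 at an unadjusted p under 0.05. The log2 fold change was then 0.99 for p3 (SE 0.362, edgeR unadjusted p 0.040, adjusted p 0.335). For p5 it was 1.81 (SE 0.389, edgeR unadjusted p 0.0055, adjusted p 0.276). The sign-flip p of the share over 3 pairs was 0.75. Few reads limit the 3 hamster-named sequences (at most 198 in a library).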
